A study of Mus musculus with 8 samples.

Results

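General macrophage marker genes were followed in the visceral fat of obese mice with and without human interleukin-37 (IL-37). The set held 10 genes: Csf1r, Mertk, Cx3cr1, Adgre1, Msr1, Cd84, Cd68, Mpeg1, Cybb and Aif1. They were chosen by symbol, and a gene with several probe sets annotated to it alone was to be read from the brightest of them. Each of the 10 had exactly 1 such probe set, so all 10 were measured and tested, among 18820 genes in all.

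The tissue was epididymal white adipose tissue, a visceral fat pad, taken from C57BL/6 males. The wild-type group (WT, 4 arrays) carried no transgene, and the transgenic group (IL37TG, 4 arrays) overexpressed human IL-37, which belongs to the IL-1 cytokines and restrains innate inflammation. All mice first ate a low-fat diet (10% of energy as fat) for 2 weeks and then a high-fat diet (45%) for 16 weeks. Wild-type mice were bought from a vendor and the transgenic line was kept on the same background, so the groups are not stated to be littermates. The age of the mice, the promoter of the transgene and the cells that express it are not given in the sources used here. The arrays are numbered as replicates but not stated to be separate mice, so the tests measure the spread between these 8 samples.

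Macrophages are the main immune cells of fat. They take up lipid from dying fat cells, clear cell debris and release signals that act on the fat cells around them, and their number is known to rise in the visceral fat of obese mice. Because whole tissue was measured, fewer macrophages and less of these RNAs in each macrophage cannot be told apart in any of the values that follow.

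The first 6 markers are proteins of the cell surface. Csf1r is the receptor for the growth factor that keeps macrophages alive, Mertk is a receptor tyrosine kinase for the engulfment of dying cells, and Cx3cr1 is the receptor for the chemokine fractalkine. Adgre1 encodes F4/80, the antigen most used to find mouse macrophages, Msr1 a scavenger receptor for modified lipoproteins, and Cd84 a receptor of the SLAM family. The others are grouped apart from these receptors. Cd68 is a glycoprotein of lysosomes, and Mpeg1 a pore-forming protein that acts on engulfed bacteria. Cybb is the catalytic subunit of the phagocyte NADPH oxidase and lies in the membrane, and Aif1 (IBA1) is an actin-bundling protein that binds calcium.

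Many genes of macrophages are switched on by PU.1, the transcription factor encoded by Spi1, which binds purine-rich DNA with the core GAGGAA. The promoter windows of RefSeq (GRCm38.p6, from 250 bases before the annotated start to 50 after it) were searched for GAGGAA on both strands, where the other strand reads TTCCTC. Windows were matched for 7 of the 10 markers, and 4 of these held the letters (Cd68, Cybb, Cd84 and Aif1), while those of Cx3cr1, Mertk and Mpeg1 did not. Of all 32851 promoter windows 28.28% held them, so a match is a description of the letters and not of a binding site. The windows of Adgre1, Csf1r and Msr1 were not used. The stretches that follow are shown to set the 4 markers with the letters beside Mertk, a marker without them; each is written 5′ to 3′ in the direction of the gene, with the matching letters in capitals.
Cd68, from base -240, chr11:69666291-69666410, minus strand: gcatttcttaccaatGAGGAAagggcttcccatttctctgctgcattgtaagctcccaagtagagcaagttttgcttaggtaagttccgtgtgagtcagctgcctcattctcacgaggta
Cd68, bases 20 to 45, chr11:69666126-69666151, minus strand: ggcttttcatTTCCTCttccaagaga
Cybb, bases -120 to 30, chrX:9469295-9469444, minus strand: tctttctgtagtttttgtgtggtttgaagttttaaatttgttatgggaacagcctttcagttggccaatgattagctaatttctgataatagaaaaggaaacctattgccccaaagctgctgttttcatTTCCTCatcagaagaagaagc
Cd84, bases -120 to 30, chr1:171839577-171839726, plus strand: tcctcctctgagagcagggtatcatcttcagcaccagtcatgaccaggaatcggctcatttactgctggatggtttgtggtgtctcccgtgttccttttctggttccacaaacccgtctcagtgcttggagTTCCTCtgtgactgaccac
Aif1, bases -120 to 30, chr17:35176023-35176172, minus strand: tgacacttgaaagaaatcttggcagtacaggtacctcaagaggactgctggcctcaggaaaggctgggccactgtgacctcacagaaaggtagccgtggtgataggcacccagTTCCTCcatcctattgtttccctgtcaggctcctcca
Mertk, bases -120 to 30, chr2:128698795-128698944, plus strand: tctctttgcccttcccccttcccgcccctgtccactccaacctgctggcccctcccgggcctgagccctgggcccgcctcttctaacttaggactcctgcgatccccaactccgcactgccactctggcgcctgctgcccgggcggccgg

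In Cd68, Cybb and Cd84 a match lay just past the annotated start of the window, beginning at bases 30, 10 and 12. In Aif1 it lay just before that start, at base -7. For Cybb and Aif1 the start used lies inside the gene span given below and not at its end. The Aif1 match therefore also lies inside its gene span. A second core that can overlap the first, GGAAGT on either strand, was found in 1 of the 7 windows, that of Cd68 at base 12, and in 23.77% of all windows. The share of G and C bases over the whole window was 66.0% in Mertk, against a median of 52.67% over all promoter windows. It was 54.33% in Cx3cr1, 47.67% in Cd68, 46.67% in Cd84, 45.0% in Aif1, 39.0% in Mpeg1 and 35.33% in Cybb. The Mertk window was thus the richest in G and C among those matched, and that of Cybb the poorest.

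The question put to these genes was whether the fat of obese IL37TG mice held less macrophage RNA than that of obese wild-type mice. Cx3cr1 was the only marker called lower (1.55-fold, limma adjusted p = 0.0231), and its call held in 12 of 21 alternative settings. Cd68, Msr1 and Cd84 had negative differences of more than 1 log2 unit, or more than 2-fold. Those of Mpeg1 (-0.88) and Adgre1 (-0.79) were also larger than that of Cx3cr1 (-0.63), and that of Cybb was near it (-0.62). None of these other markers passed the adjusted threshold of 0.05. Csf1r differed by -0.32 log2 units, Aif1 by -0.15 and Mertk by 0.04. Thus 1 of 10 markers was called lower, beside 1.27% of all genes, and none was called higher by limma (2.07% of all genes), nor at an unadjusted p of at most 0.05 (11.2% of all genes).

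Most of the markers had negative differences that did not pass singly, Cx3cr1 excepted. The median difference was -0.71 log2 units over the 10 markers and 0.02 over all 18820 genes. A negative difference was found for 9 of 10 markers and for 44.7% of all genes. At an unadjusted limma p of at most 0.05, 7 of 10 markers were lower, beside 9.42% of all genes. Groups that did not overlap, with every IL37TG array below every WT array, occurred for 3 of 10 markers and for 5.73% of all genes, while the opposite order occurred for no marker and for 8.24% of all genes. Markers of one cell type share the RNA of the same cells, so they are not 10 separate tests of one difference. They were also chosen with earlier results of these data known, so the shares set beside all genes are a description.

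WT replicate 3 stood apart from the other wild-type arrays. It had the lowest wild-type value of all 10 markers, and for 7 of the 10 it lay below the highest IL37TG array. IL37TG replicate 4 was the lowest transgenic array for 7 of the 10. Differences are therefore also given without WT replicate 3. Its removal was bound to raise each wild-type mean, since it held each lowest wild-type value, and so to move each difference downwards. The removal gives no support to any difference. Nor do the adjusted p-values printed without this array, since it was picked for its low values. When IL37TG replicate 4 was left out instead, no marker was called.

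**Figure D1:**
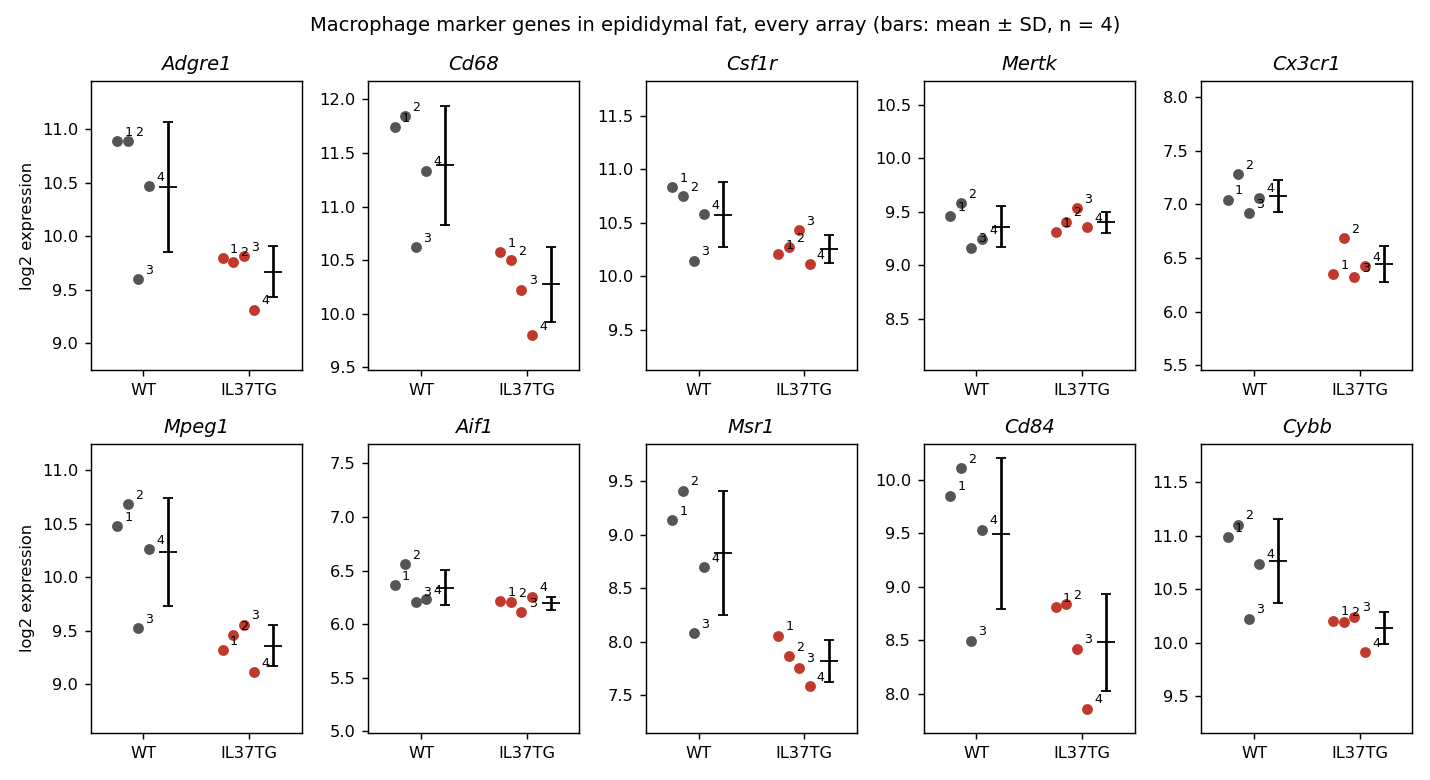
Log2 expression of each of the 10 marker genes on every array, with the 4 WT arrays in grey, the 4 IL37TG arrays in red, the replicate number beside each point, and the group mean ± SD as a bar. Each panel spans the same number of log2 units; WT replicate 3 is the lowest grey point in every panel, and the groups are apart for Cd68, Cx3cr1 and Msr1.

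Among the surface receptors, Cx3cr1 (its gene at chr9:120048683-120068296 of GRCm38.p6) read 7.04, 7.28, 6.92 and 7.06 log2 units on WT replicates 1 to 4 and 6.35, 6.68, 6.32 and 6.42 on IL37TG replicates 1 to 4. The groups were apart, with the lowest wild-type array above the highest transgenic array, and WT replicate 3 was close to the other wild-type arrays. Cx3cr1 fell by 0.63 log2 units (SE 0.11, 95% interval -0.88 to -0.39, limma adjusted p = 0.0231), and by 0.69 without WT replicate 3. The mean signal of its probe set, 6.76, was near that of the median gene (6.74), unlike the brighter probe sets of most other markers. When each of the 8 arrays was left out in turn, the call held without WT replicate 3 or IL37TG replicate 2 and was lost in the other 6 cases, with differences from -0.71 to -0.57.

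Csf1r (chr18:61105572-61131139) read 10.83, 10.75, 10.14 and 10.58 in WT and 10.20, 10.27, 10.43 and 10.11 in IL37TG. Its groups overlapped through WT replicate 3, which lay above only IL37TG replicate 4. The difference was -0.32 (SE 0.15, 95% interval -0.66 to 0.02, limma adjusted p = 0.271), and -0.47 without WT replicate 3 (limma adjusted p = 0.0343).

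Mertk (chr2:128698915-128803162) read 9.46, 9.58, 9.16 and 9.24 in WT and 9.31, 9.41, 9.53 and 9.36 in IL37TG. The groups lay on top of each other, and the lowest array of all was a wild-type one. The difference was 0.04 (SE 0.10, 95% interval -0.19 to 0.27, limma adjusted p = 0.862), so that the interval leaves out a fall as large as the point estimates of 8 of the other markers, all but Aif1. Mertk changed sign without WT replicate 3, to -0.03.

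Adgre1, the F4/80 gene at chr17:57358581-57483529, read 10.89, 10.89, 9.60 and 10.47 in WT and 9.79, 9.76, 9.81 and 9.31 in IL37TG. WT replicates 1, 2 and 4 were above all transgenic arrays, and WT replicate 3 was below 3 of them. The difference was -0.79 (SE 0.28, limma adjusted p = 0.163), and -1.08 without WT replicate 3 (limma adjusted p = 0.0149).

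Msr1 (chr8:39543232-39642750) read 9.14, 9.41, 8.08 and 8.69 in WT and 8.06, 7.86, 7.76 and 7.59 in IL37TG. The groups did not overlap, but WT replicate 3 and IL37TG replicate 1 nearly met. The difference was -1.01 (SE 0.27, limma adjusted p = 0.0801), a level 2.02-fold lower with a 95% interval from 1.32-fold to 3.08-fold. Without WT replicate 3 it was -1.26 (limma adjusted p = 0.0139).

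Cd84 (chr1:171839697-171890718) read 9.85, 10.11, 8.50 and 9.53 in WT and 8.81, 8.84, 8.42 and 7.86 in IL37TG. The groups overlapped, with WT replicate 3 below IL37TG replicates 1 and 2. Cd84 had the largest spread of the 10 markers in both groups, with SDs of 0.71 and 0.45 (n = 4). The difference was -1.02 (SE 0.36, limma adjusted p = 0.162), and -1.35 without WT replicate 3 (limma adjusted p = 0.0268).

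Among the markers grouped apart from the receptors, Cd68 (chr11:69664213-69666170) read 11.74, 11.84, 10.62 and 11.33 in WT and 10.57, 10.50, 10.22 and 9.80 in IL37TG. The groups did not overlap, although WT replicate 3 lay just above the highest transgenic array. Cd68 had the largest difference of the 10, -1.11 (SE 0.28, limma adjusted p = 0.0750), which is 2.16-fold with a 95% interval from 1.38-fold to 3.39-fold. It was -1.36 without WT replicate 3 (limma adjusted p = 0.0154).

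Mpeg1 (chr19:12460770-12465285) read 10.48, 10.68, 9.52 and 10.26 in WT and 9.32, 9.46, 9.56 and 9.11 in IL37TG. The groups overlapped by a narrow margin, with WT replicate 3 below IL37TG replicate 3 alone. The difference was -0.88 (SE 0.24, limma adjusted p = 0.0835), and -1.11 without WT replicate 3 (limma adjusted p = 0.00968).

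Cybb (chrX:9435252-9487766) read 10.98, 11.10, 10.23 and 10.74 in WT and 10.20, 10.19, 10.24 and 9.91 in IL37TG. Here too WT replicate 3 was below IL37TG replicate 3 alone, while the other wild-type arrays stood above all transgenic ones. The difference was -0.62 (SE 0.18, limma adjusted p = 0.105), and -0.80 without WT replicate 3 (limma adjusted p = 0.0142).

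Aif1 (chr17:35170986-35176083) read 6.37, 6.56, 6.21 and 6.23 in WT and 6.21, 6.21, 6.11 and 6.25 in IL37TG. The groups overlapped, all 8 arrays lay close together, and the mean signal was 6.27. The difference was -0.15 (SE 0.08, 95% interval -0.34 to 0.05, limma adjusted p = 0.374), and -0.19 without WT replicate 3.

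**Figure D2:**
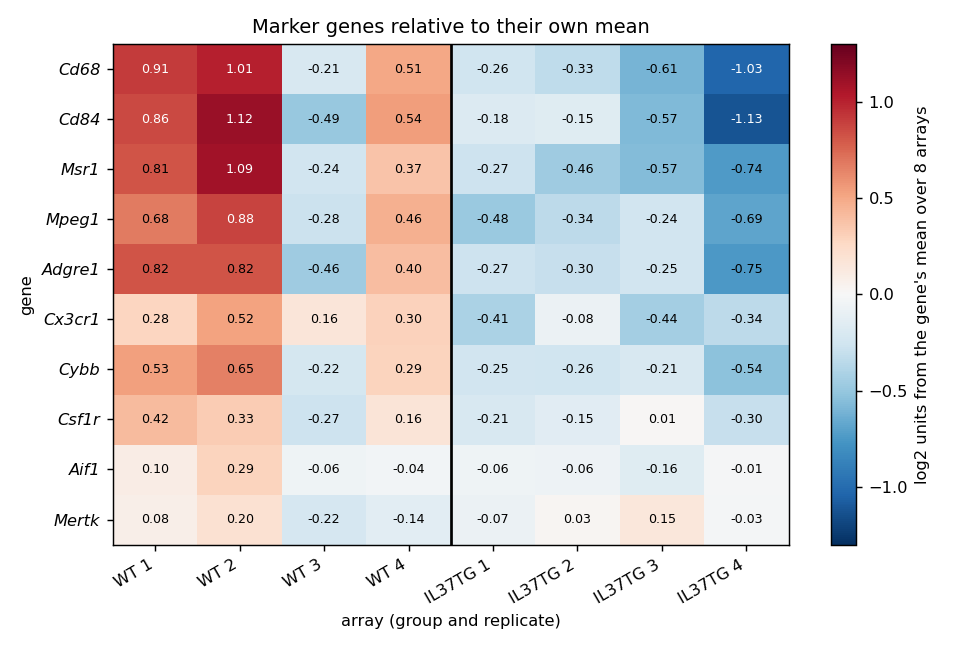
Each of the 10 markers as log2 units from its own mean over the 8 arrays (colour and printed value), with WT replicates 1 to 4 on the left and IL37TG replicates 1 to 4 on the right. WT replicates 1, 2 and 4 are above the mean for all markers but Aif1 and Mertk, WT replicate 3 is below it for all but Cx3cr1, and IL37TG replicate 4 holds the lowest value of 7 markers.

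The arrays were ordered alike by most markers. Averaged over the 10 markers, each taken from its own mean, the wild-type arrays stood at 0.55, 0.69, -0.23 and 0.29 log2 units, and the transgenic arrays at -0.25, -0.21, -0.29 and -0.55. WT replicate 3 thus lay among the transgenic arrays. With the group means removed, the 45 pairs of markers had Pearson correlations from 0.38 to 0.99 over the 8 arrays, with a median of 0.83. These describe arrays that share their RNA between genes, and carry no test. The closest pair was Cd68 and Cd84 (0.99), and the most distant was Csf1r and Cx3cr1 (0.38).

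Cx3cr1, Aif1 and Mertk departed from this order in different ways. With group means removed, Cx3cr1 had a correlation of 0.57 with the mean of the other 9 markers, the lowest of the set, where Cybb had 0.99. Aif1 had the next lowest, 0.64. With group means kept, Cx3cr1 had 0.84 and Aif1 0.775. Mertk had 0.79 by the same measure, but 0.36 over the 8 arrays with group means kept. The 0.79 pools both groups. In WT, Mertk was lowest on replicate 3 and highest on replicate 2, as most markers were. In IL37TG it was highest on replicate 3, as were 5 of the 10 markers with Mertk included. It was lowest there on replicate 1, while 7 of the 10 markers were lowest on replicate 4. The group difference of Mertk was near 0. Whether its difference departs from that of the other markers was not tested.

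The array names carry a letter and a number that are not explained by the labels and are uneven between the groups. The letter G was the only one in both groups (WT replicates 3 and 4, IL37TG replicate 1), and within it the markers differed by -0.01 to -0.64, apart from Mertk at 0.11, with a median of -0.26. Cx3cr1 held its size there (-0.64), while Cd68 was at -0.40 and Adgre1 at -0.24. Within the number 5 (WT replicate 3 and IL37TG replicate 2) the median was -0.02 and 6 of 10 markers were below 0. Within the number 7 it was -0.78 with 9 of 10 below 0, and within the number 9 it was -1.19 with 10 of 10 below 0. With the letter as a block Cx3cr1 was not called (limma adjusted p = 0.268), nor with the number as a block (limma adjusted p = 0.0824), and no other marker was.

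Other macrophage genes were read beside the set. Of 18 measured markers that are no members, Sirpa, Clec12a and Fcgr1 fell, 15 did not pass and none rose in limma, also at an unadjusted p of at most 0.05. The 3 of 18 stand beside 1.27% of all genes called lower. Sirpa, which binds the signal CD47 that restrains engulfment, fell by 0.88 log2 units (SE 0.18, limma adjusted p = 0.0416). Clec12a, an inhibitory lectin receptor of myeloid cells, fell by 1.28 (SE 0.27), and Fcgr1, the high-affinity IgG receptor, by 1.09 (SE 0.23), both with a limma adjusted p of 0.0469. The IgG receptor Fcgr4 had the next lowest p, at -1.21 (SE 0.29, limma adjusted p = 0.0663). All 18 differences were negative, with a median of -0.55, and 5 of the 18 had groups that did not overlap, beside the 5.73% of all genes. Each of the 3 calls was lost in 7 of the 8 cases in which an array was left out, and held without WT replicate 3. Clec12a, at -1.27, and Fcgr1, at -1.09, also lost the call when arrays were centred on their medians, and Fcgr1, at -1.08, after a second quantile normalisation. All 3 lost it with the letter or the number of the array names as a block; with the letter block Sirpa was at -0.50, Clec12a at -0.74 and Fcgr1 at -0.70.

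**Figure D3:**
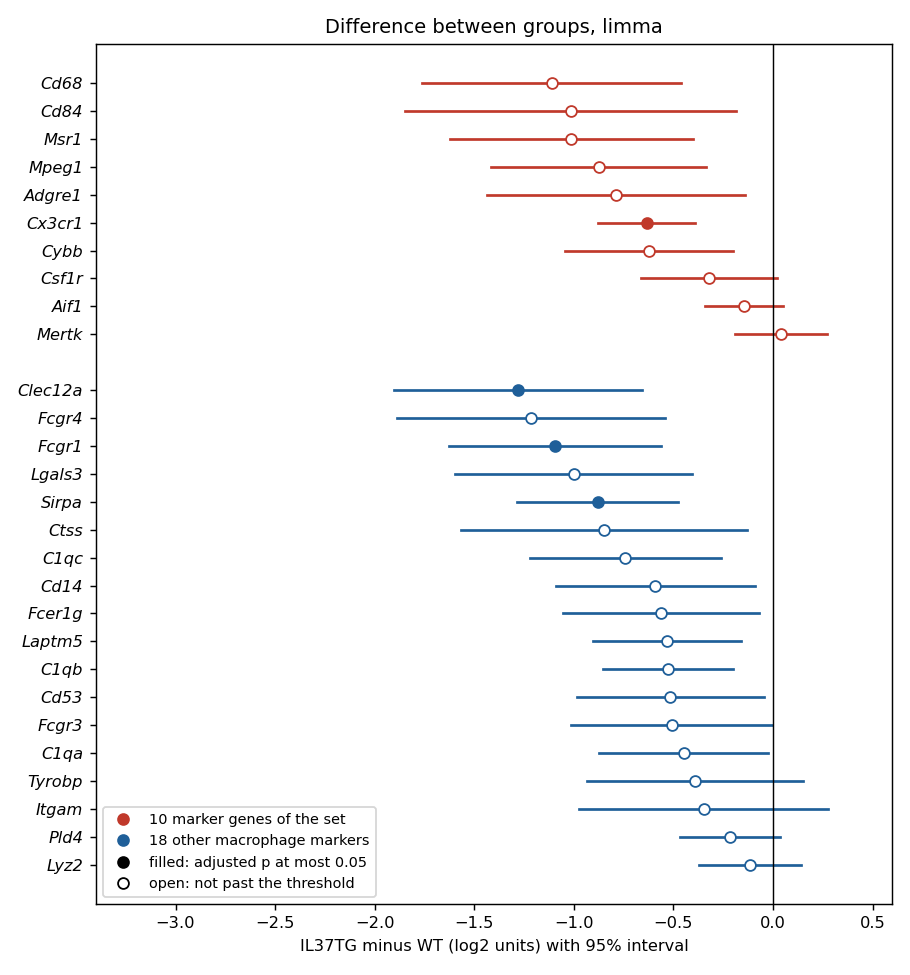
Difference IL37TG minus WT in log2 units (point) with its 95% interval from limma (line), for the 10 marker genes in red and 18 other macrophage markers in blue, each sorted by size. Filled points passed the adjusted threshold: Cx3cr1, Clec12a, Fcgr1 and Sirpa; the intervals of Csf1r, Aif1 and Mertk reach past 0.

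The genes that work with the markers were followed next, over 41 measured ligands, subunits, relatives and regulators. Irf8 fell, 40 did not pass and none rose in limma; at an unadjusted p of at most 0.05, 13 were lower and 1 higher, beside 9.42% and 11.2% of all genes. The single call among 41 is near the 1.27% of all genes called lower. The median difference of the 41 was -0.25 log2 units, and 31 were negative, beside 44.7% of all genes. Groups were apart with IL37TG lower for 4 of the 41 (Cyba, Rac2, Lamp2 and Irf8), beside 5.73% of all genes. They were apart with IL37TG higher for 1 (Cebpa), beside 8.24% of all genes.

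The ligands of the receptors showed small differences. Csf1, the main ligand of Csf1r, differed by -0.28 (SE 0.10, limma adjusted p = 0.169), and Il34, its other ligand, by 0.17. Cx3cl1, the fractalkine that Cx3cr1 binds, differed by -0.25 (SE 0.11, limma adjusted p = 0.228). The Mertk ligands Gas6 and Pros1 differed by 0.00 and -0.03, and its sister receptors Axl and Tyro3 by -0.17 and 0.02. Neither these ligands nor the sister receptors passed the threshold, and the TAM receptors Axl, Tyro3 and Mertk all had groups that overlapped.

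The other 5 measured subunits and helpers of the NADPH oxidase lay on the same side of 0 as Cybb. Cyba, which pairs with Cybb in the membrane, differed by -0.61 (SE 0.17, limma adjusted p = 0.0871) beside -0.62 for Cybb, and its groups did not overlap. The GTPase Rac2 differed by -0.39 (limma adjusted p = 0.150), also with groups apart. Ncf4 and Ncf1, subunits from the cytosol, were at -0.34 and -0.27, and Cybc1, a chaperone of the membrane pair, at -0.23. None of the 5 passed.

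In the family of Cd84, Ly9 differed by -0.93 (SE 0.26, limma adjusted p = 0.0961) and Slamf7 by -0.67 (SE 0.21, limma adjusted p = 0.119), while Cd244a differed by 0.14. Over 9 genes of the family and its adaptors, 8 were negative, with a median of -0.41, and none passed.

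Scavenger receptors other than Msr1 did not share one direction. Olr1, a receptor for oxidised lipoprotein, differed by -0.80 (SE 0.28, limma adjusted p = 0.156) and Scarb1, a lipoprotein receptor, by -0.26, whereas Cd36, the fatty acid carrier that fat cells also make, differed by -0.04 and Scara5 by 0.25. Relatives of the remaining markers were nearer to 0: Adgre5 differed by 0.02 and Adgre4 by 0.03 beside Adgre1, and the lysosomal proteins Lamp2 and Lamp1 by -0.11 and -0.06 beside Cd68. Prf1, the perforin of killer cells, differed by -0.26 and Aif1l, a homologue of Aif1, by 0.25.

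Among 7 regulators, Irf8, a transcription factor of monocytes and macrophages, read 9.66 ± 0.14 in WT and 9.02 ± 0.21 in IL37TG (SD, n = 4). It fell by 0.63 (SE 0.12, limma adjusted p = 0.0309), with groups apart, and its call was lost in 6 of the 8 cases in which an array was left out. With the letter of the array names as a block Irf8 differed by -0.25 (limma adjusted p = 0.542), and with the number as a block by -0.65 (limma adjusted p = 0.0906). Spi1, the PU.1 gene, differed by -0.81 (SE 0.29, limma adjusted p = 0.161) and Runx1 by -0.76 (SE 0.21, limma adjusted p = 0.0871). Cebpa, a factor of fat cells as well as myeloid cells, lay on the other side at 0.42 (SE 0.09, limma adjusted p = 0.0507), with groups apart. Cebpb and Nr1h3 differed by -0.02 and -0.01.

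**Figure D4:**
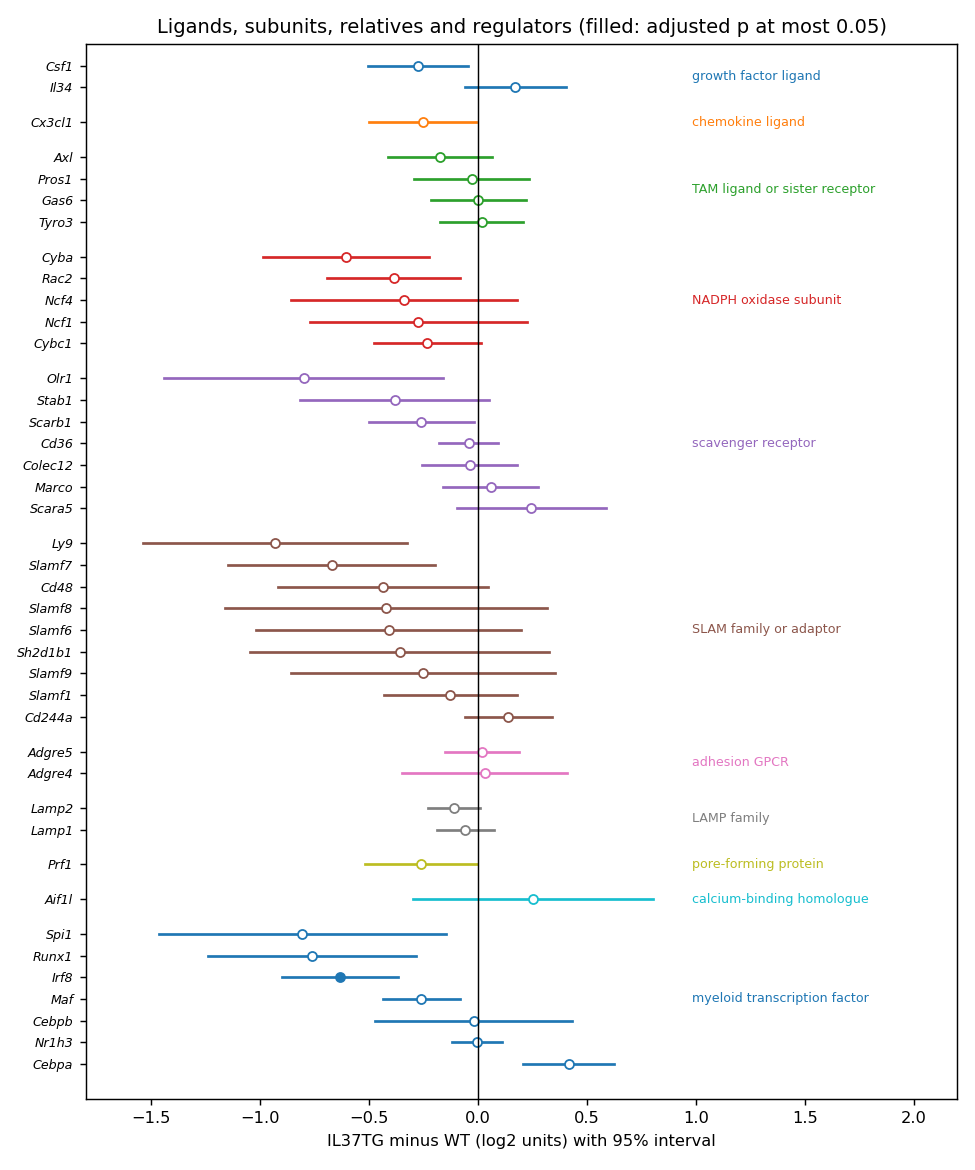
Difference IL37TG minus WT in log2 units (point) with its 95% interval from limma (line) for 41 ligands, subunits, relatives and regulators of the markers, grouped by role. Irf8 is the single filled point, past the adjusted threshold; the NADPH oxidase subunits all lie to the left of 0 and the Mertk ligands lie at 0.

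The genes whose values were most like the set were found by the Pearson correlation, over the 8 arrays, with the mean of the 10 markers. Among 9171 genes at or above the median level, without the markers and without predicted genes, clones and small RNAs, the highest correlations were those of Cd300c2, Nckap1l, Igsf6, Basp1, Gla and Myo9b, from 0.997 down to 0.996. Nckap1l, an actin regulator of blood cells, differed by -0.98 (limma adjusted p = 0.0829), and the CD300 family receptor Cd300c2 by -1.15 (limma adjusted p = 0.0883). The other 4 ran from -0.87 for Basp1 to -0.37 for Myo9b. After the group means were removed, the 6 highest were Tlr8, Stap1, Tyrobp, Nckap1l, Cd300c2 and Lpxn. The most opposite genes over the 8 arrays were Trappc6b (-0.99), Hdac1 (-0.99), Chn1 (-0.98) and Pxmp4 (-0.98), with differences of 0.12 to 0.32. These genes were picked by this likeness, so it is a description.

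Markers of other cells were set beside these values, and their part in them was not tested. Of 8 genes of fat cells, Adipoq (0.30, limma adjusted p = 0.0309) and Slc2a4 (0.74, limma adjusted p = 0.0188) rose and 6 did not pass. Those 2 of 8 stand beside 2.07% of all genes called higher. When arrays were left out in turn, the call of Adipoq was lost in 7 of 8 cases and that of Slc2a4 in 4, and both were lost with the letter or the number as a block. The list mean of the fat cell genes ran from 11.87 to 12.01 in WT and from 12.06 to 12.14 in IL37TG, and WT replicate 3 had the highest wild-type value, as it had the lowest for macrophage markers. Of 6 neutrophil genes S100a8 (-1.51, limma adjusted p = 0.0280) and Csf3r (-0.46, limma adjusted p = 0.0201) fell, while Retnlg differed by 0.88, Cxcr2 by 0.07, S100a9 by -0.08 and Mmp8 by -0.20, none of them past the threshold. The 2 calls among 6 stand beside 1.27% of all genes called lower. The call of S100a8 was lost in 6 of 8 cases with an array left out and that of Csf3r in 5. Both were lost with either block, where the letter block gave -2.27 for S100a8 and -0.26 for Csf3r. Csf3r, at -0.43, also lost the call after a second quantile normalisation (limma adjusted p = 0.0552). Its mean signal, 6.005, was below that of the median gene (6.74). The neutrophil list mean ran from 4.92 to 5.11 in WT and from 4.61 to 5.07 in IL37TG. The defining neutrophil gene Cxcr2 (3.71 in WT) and Mmp8 (3.56) were dimmer than 4.49, the mean signal that 25% of genes fall short of. No gene passed among 6 of T cells (list mean 5.97 to 6.37 in WT and 5.99 to 6.27 in IL37TG), 4 of B cells (5.95 to 7.49 and 6.33 to 7.28), 7 of dendritic cells (6.71 to 7.05 and 6.65 to 7.06) or 6 of mast cells (6.22 to 6.83 and 5.88 to 6.64). The same held for 6 endothelial (10.07 to 10.30 and 10.17 to 10.33), 6 fibroblast (9.64 to 9.88 and 9.51 to 9.86), 5 mesothelial (7.51 to 8.45 and 7.89 to 8.53), 5 natural killer (5.35 to 5.62 and 5.15 to 5.61), 4 eosinophil (4.36 to 4.67 and 4.13 to 4.87) and 3 red blood cell genes (6.56 to 7.09 and 6.91 to 7.70). Among the fibroblast genes, which did not pass, the matrix genes Lum (-0.76, limma adjusted p = 0.0565) and Col1a1 (-0.63, limma adjusted p = 0.0981) had groups apart, with the same lowest arrays as most macrophage markers, WT replicate 3 and IL37TG replicate 4. Pdgfra differed by -0.20, Dcn by 0.04, Dpp4 by 0.18 and Pi16 by 0.63. Cd2 of the T cell list (0.57, limma adjusted p = 0.0608) and Zbtb46 of the dendritic cell list (0.20, limma adjusted p = 0.0656) were higher, with groups apart. Cd209a of the dendritic cell list differed by 0.90 (limma adjusted p = 0.0894), with groups that overlapped. Negative differences were found for all 6 mast cell genes (median -0.34), beside 44.7% of all genes. They were found for 5 of the 6 T cell, 4 of the 7 dendritic cell and 4 of the 6 neutrophil genes. The same was so for 3 of the 6 fibroblast and 3 of the 5 natural killer genes. Only 1 was negative among the 8 fat cell, the 6 endothelial and the 4 eosinophil genes each. None was among the 4 B cell, 5 mesothelial and 3 red blood cell genes. In the B cell list WT replicate 3 was the highest array of all, at 7.49.

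**Figure D5:**
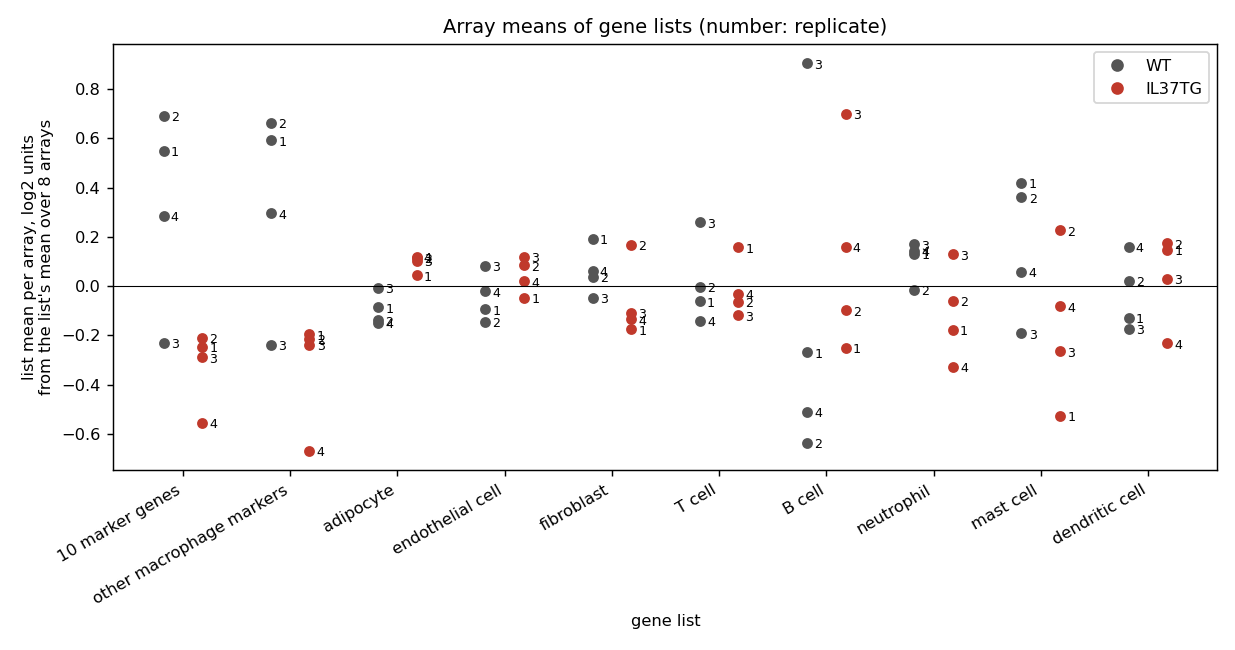
Mean log2 level of gene lists on each array, as log2 units from the list's own mean over the 8 arrays, with WT in grey, IL37TG in red and the replicate number beside each point. Both macrophage lists put WT replicate 3 among the transgenic arrays, the adipocyte list is the one whose groups are apart, and WT replicate 3 is highest for B cells.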

How the data were processed

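Log2 expression values of 35556 probe sets were used as deposited; the submitters' processing notes name RMA, which corrects background, equalises arrays by quantiles and summarises probes. Settings, version and probe annotation are not given in the sources used here. A shift shared by most genes cannot be seen in such values, dim probe sets can understate differences, and the number of arrays limits the precision. Array medians were 5.97 to 6.04. Symbols came from GEO's platform annotation, updated through Entrez identifiers for 21185 of 21218 probe sets with 1 symbol; 1881 had several and 12457 none. The test was a two-sided limma fit (version 3.58.1, R 4.3.3; lmFit and eBayes) without a filter, with p-values adjusted by Benjamini-Hochberg over 18820 genes. On simulated data with 50 genes changed by each size among 18820, 52% were called at 0.5 log2 units and 98% at 1, and 15 of 189 called genes were unchanged. The changed genes were drawn at random and the noise separately for each gene, without shifts of whole arrays. These shares therefore do not carry over to the markers: Cd68, Msr1 and Cd84 differed by more than 1 log2 unit and were not called.

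The members and lists were chosen with earlier results of these data known. Named were all members; of each role of the partner list, the 2 genes of lowest p (1 for small roles); 4 other macrophage markers; genes of other lists past the threshold; and the genes most like the set. Genes named beyond these illustrate a group and were chosen after their values were seen. Some genes of these lists are not reported here. Alternatives covered normalisation, filters, probe set choice, variance model, blocks and removed arrays. Figures were drawn with matplotlib 3.10.9.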

Additional observations from a re-analysis of the deposited data

Results flagged for a closer look

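Of 96 group values of 4 arrays examined (48 genes in 2 groups), 7 (7.29%) held an array that stood well away from its 3 group mates; about 1 in 20 would do so by chance. IL37TG replicate 4 lay far below the other transgenic arrays for 5 genes. Adgre1 was 9.31 there against 9.76 to 9.81, Cybb 9.91 against 10.19 to 10.24, and Clec12a 8.09 against 8.52 to 8.54. Basp1 was 7.98 against 8.39 to 8.41, and Stap1 7.15 against 7.59 to 7.63. WT replicate 4 was low for Lamp2, at 11.49 against 11.53 in the other wild-type arrays. IL37TG replicate 1 was high for Csf3r, at 5.88 against 5.72 to 5.75. Without IL37TG replicate 4, Adgre1 differed by -0.67 and Cybb by -0.55, and neither passed, as with all arrays.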

How the results depend on the processing

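Of the 10 markers 1 was called lower with the settings of the report. The count was 5 among genes at or above the median gene (Cd68, Cx3cr1, Mpeg1, Msr1 and Cybb; Aif1 was not tested there), 5 with array weights (the same 5 genes), and 0 with the letter of the array names as a block, with their number as a block, and without the 2 IL37TG arrays whose names end in 2. Leaving out 1 array gave 0 to 8, with 8 without WT replicate 3 and at most 1 otherwise. No marker was called higher by limma in any of the 21 alternatives. Partner genes called lower (1) were 5 with the median-gene filter, 5 with array weights, 0 with the replicate block, the letter block, the number block or without the 2 arrays, and 0 to 6 without 1 array. Partner genes called higher (0) were 1 with the 25th percentile filter, the median-gene filter, the trended and robust prior or array weights (Cebpa in each), and 0 to 1 without 1 array. Other macrophage markers called lower (3) were 1 with arrays centred on their medians, 7 with the median-gene filter, 8 with array weights, 0 with the replicate block, the letter block, the number block or without the 2 arrays, and 0 to 11 without 1 array, with 11 without WT replicate 3 and 0 otherwise.

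Over all genes, 239 were lower and 390 higher. These were 554 and 741 with the median-gene filter, which kept 9410 genes. They were 539 and 724 with array weights, 53 and 40 with the replicate block, 60 and 10 with the letter block, 28 and 44 with the number block, and 5 and 13 without the 2 arrays. Leaving out 1 array gave 32 to 668 lower, with 668 without WT replicate 3, and 50 to 520 higher. Whether the replicate numbers shared by the groups pair the samples cannot be settled from these values. Same-numbered arrays had correlations of their deviations from the group means of 0.06 to 0.10, and 3 wild-type arrays correlated better with another number. The median difference of the markers was -0.94 to -0.61 without 1 array and -0.26 with the letter block.

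Among single genes, Mertk turned to -0.026 without WT replicate 3, -0.0035 without IL37TG replicate 3 and -0.0287 without the 2 arrays, and ran from -0.026 to 0.1123 without 1 array. With the letter block Csf1 turned to 0.0035, Pros1 to 0.24, Prf1 to 0.0007 and Tyrobp to 0.0937. Pros1, which ran from -0.1386 to 0.0271 without 1 array, was 0.0271 without WT replicate 2, 0.0045 without WT replicate 4 and 0.0040 without IL37TG replicate 4. Adgre5, which ran from -0.0309 to 0.0576, was -0.0309 without IL37TG replicate 1 and -0.01 without IL37TG replicate 3. The cause of these changes was not tested. With 4 arrays a group, 52% of differences of 0.5 log2 units were called on simulated data, for genes drawn at random and without shifts of whole arrays.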
